A study of Mus musculus with 22 samples.

Results

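The 10 genes described here are Trp53, the Cdkn2a and Cdkn2b genes that had been disrupted together with it in the leukemia line, and 7 genes that p53 is known to activate (Cdkn1a, Mdm2, Ccng1, Zmat3, Phlda3, Eda2r and Sesn2). They were chosen by name, and their transcripts were taken as GENCODE assigns them. Of the 10 genes, 9 had transcripts in the deposited table, 27 transcripts of the 131 annotated, among 62492 transcripts of 17023 matched genes in all. Eda2r, an X-linked receptor gene, had none of its 12 annotated transcripts there, and the table lists only transcripts above 0 in at least 5 of the 22 libraries.

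RNA had been sequenced from TCL1-355 TKO cells, a murine leukemia line from the Eμ-TCL1 transgenic model of chronic lymphocytic leukemia, in which the human TCL1 oncogene is driven in B cells. All 6 groups share the TCL1 transgene and, by the study's account, biallelic loss-of-function lesions of Trp53, Cdkn2a and Cdkn2b, so that no group with these genes intact was available for comparison. In NFKBIE-ko cells Nfkbie, which encodes the NF-κB inhibitor IκBε, had been targeted at exon 2 with a CRISPR/Cas9 ribonucleoprotein, and NFKBIE-wt cells were mock-transfected. Both were propagated for 21 days in 2 C57BL/6 mice, injected intraperitoneally into mice of the same strain, and recovered after 10 days from the spleen (4 NFKBIE-wt and 4 NFKBIE-ko samples) or the peritoneal cavity (PC, 4 and 4), or grown from spleen cells for 2 weeks in vitro (3 and 3). The genotypes were kept apart during this propagation, so that the donor mouse went with the genotype in the spleen and PC samples. The 4 samples of a group may thus share a donor, and the effect of the donor was not tested. The leukemic cells of the spleen and PC had not been purified for RNA. Host cells, by the study's account a minority, were thus sequenced with them. The recipient mice were not edited, and the part of host cells in the RNA of the 10 genes was not tested. In such bulk samples fewer cells of a type and less RNA per cell cannot be told apart.

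In normal cells p53 is kept low by Mdm2, a ubiquitin ligase that p53 itself induces, and rises after DNA damage or oncogene activity. It then activates genes that halt the cell cycle, repair DNA or start apoptosis, of which Cdkn1a (p21) is the best known. Cdkn2a encodes 2 unrelated proteins from alternative first exons. p16Ink4a binds Cdk4 and Cdk6, as does the product of the neighbouring Cdkn2b, and so keeps Rb active, whereas p19Arf binds Mdm2 and frees p53. A gene with a small edit can still be transcribed when no functional protein is made from it.

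Both transcripts of Cdkn2a were in the table, and they differ in the first exon, shown here because the readings of p16Ink4a and p19Arf below depend on it. The locus lies on chromosome 4 of GRCm39 on the minus strand (chr4:89192708-89212890), with Cdkn2b upstream (chr4:89223204-89229276). The first exon of p16Ink4a spans chr4:89200223-89200429, that of p19Arf chr4:89212571-89212890, and the starts lie 12.5 kb apart. Both are spliced to the same 341 bases of exon 2 (chr4:89194882-89195222). The last 15 bases of the first exon are in lower case and the first 15 of exon 2 in capitals, read 5′ to 3′ on the coding strand from the genome.
p16Ink4a: cgtaccccgattcagGTGATGATGATGGGC
p19Arf: ggaatcctggaccagGTGATGATGATGGGC
The first exon contributes 126 coding bases to p16Ink4a and 190 to p19Arf, which leave 0 and 1 bases past a whole codon, so that exon 2 is read in different frames. Exon 3 begins at the same base in both but ends further downstream in the p16Ink4a transcript (chr4:89192708-89193011 against chr4:89192778-89193011). Reads from exon 2 and the shared part of exon 3 belong to both transcripts, and the split between them rests on Salmon's assignment by the first exons and the end of exon 3.

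The p53 target genes were searched for the p53 consensus, a pair of adjoining 10-base half-sites, on both strands within 2500 bases of the canonical start. Half-sites set apart by other bases were not searched for. The search shows where a known type of p53 element could lie in the genes whose levels follow. A window with at least 18 of the 20 consensus bases was found for 5 of the 7 target genes, and such a match occurred in 15.3% of 21757 windows of protein-coding genes. Bases that match the consensus are in capitals, and each sequence is read on the strand of its gene.
Zmat3 (chr3:32418480-32418499, 1418 bases into the gene): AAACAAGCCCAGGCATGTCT
Mdm2 (chr10:117547575-117547594, at -922 from the start): GGGCAAtTCCGGGCAAGTCC
Ccng1 (chr11:40645763-40645782, 365 bases into the gene): AcGCAAGCCCGGGCTAGTCT
Ccng1 (chr11:40646289-40646308, at -161 from the start): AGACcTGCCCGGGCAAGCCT
Cdkn1a (chr17:29310789-29310808, at -1940 from the start): GAGgAAGaCTGGGCATGTCT
Cdkn1a (chr17:29311173-29311192, at -1556 from the start): cAGaTAGCTCAGGCTAGCCT
Eda2r (chrX:96420297-96420316, 532 bases into the gene): GAAtATGCCCGGACTTGTCC
Eda2r (chrX:96420140-96420159, 689 bases into the gene): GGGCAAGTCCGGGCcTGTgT
Zmat3 matched all 20 bases, found in 0.0827% of windows, and 19 or more were found in 1.37%. The best match for Sesn2 had 17 bases and for Phlda3 16, levels reached by 73.5% and 99.9% of windows. These are matches of letters and not measured binding.

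The libraries held 24036763 to 26581304 estimated counts. B-cell markers were high in all 22 libraries, at 1345 to 3450 CPM (counts scaled to a common library size by TMM) summed over 6 genes. In 2 libraries the markers went against the labels. The library with the label of NFKBIE-wt spleen replicate 4 had 0 counts of the hemoglobin gene Hbb-bs, of Alas2 and of S100a8, whereas the 3 other NFKBIE-wt spleen libraries had 75.3 to 771 CPM of Hbb-bs, and it correlated at 0.971 to 0.984 with the other NFKBIE-wt cultures against 0.893 to 0.927 with those spleens. The library with the label of NFKBIE-wt in vitro replicate 3 had 404 CPM of Hbb-bs and correlated at 0.964 to 0.984 with the NFKBIE-wt spleens against 0.888 to 0.913 with the other cultures of its label. Samples stayed in the groups of their labels, and counts of called genes are also given without these 2 libraries, a choice made after the values were seen. NFKBIE-ko spleen replicate 2 also differed from its group, with 14.1 CPM of Hbb-bs against 223 to 371. Nfkbie, the edited gene, had 67.3 to 91.2 CPM in NFKBIE-wt PC and 47.2 to 64.9 in NFKBIE-ko PC, a log2 fold change of -0.56 ± 0.12 (SE, adjusted p = 0.00377, edgeR). In the spleens its level was 70.9 to 124 CPM in NFKBIE-wt and 54.2 to 120.3 in NFKBIE-ko (adjusted p = 0.730, edgeR). In the cultures it was 54.3 to 141 and 48.2 to 59.9 (adjusted p = 0.517, edgeR). Without the 2 libraries whose markers went against their labels, NFKBIE-wt had 70.87 to 76.85 CPM in the spleens and 116.8 to 140.6 in the cultures. The cultures of the genotypes then did not overlap, while the spleens still did.

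Transcripts of all 3 disrupted tumor suppressors were detected in every library. Cdkn2a was by far the most abundant of the 10 genes. On a scale per length, its level averaged 473 CPM per kb, above all but 166 of the 17023 genes. The next levels per length were 25.5 CPM per kb for Mdm2, 23.1 for Ccng1, 18.4 for Trp53, 15.6 for Cdkn2b and 13.6 for Cdkn1a, whose ranges over libraries overlapped from each to the next. Sesn2 averaged 6.28, Zmat3 2.24 and Phlda3 0.317 CPM per kb, and Phlda3 had 0 counts in 4 libraries.

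**Figure D1:**
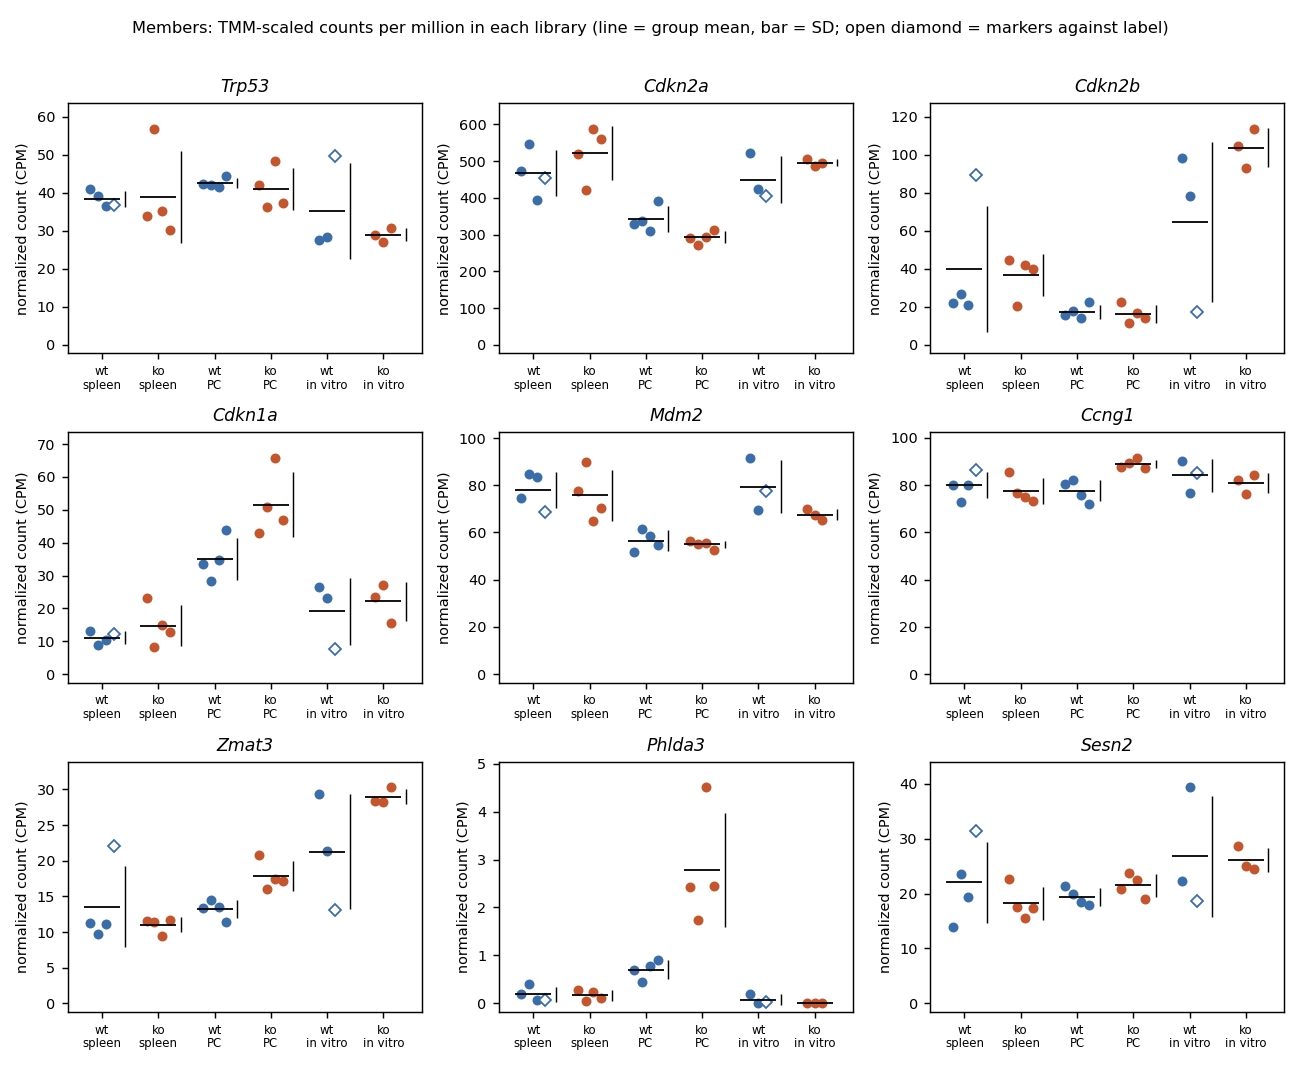
Level of each of the 9 genes in every library, in TMM-scaled CPM (linear axes from 0), by genotype and site, with the group mean (line) and SD (bar). Open diamonds are the 2 libraries whose markers went against their labels, which lie apart from their groups for Cdkn2b. Cdkn1a and Phlda3 were highest in the PC, and Cdkn2a and Mdm2 lowest.

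Trp53 was measured at a moderate level, from 27.1 to 56.8 CPM over the libraries. It had 36.6 to 41.0 CPM in the NFKBIE-wt spleens and 30.1, 33.7, 35.1 and 56.8 in the NFKBIE-ko spleens, the highest value being that of replicate 2. In the PC it had 41.4 to 44.3 CPM in NFKBIE-wt and 36.3 to 48.4 in NFKBIE-ko. The NFKBIE-ko cultures had 27.1, 29.0 and 30.6 CPM and the NFKBIE-wt cultures 27.6, 28.3 and 49.6, the last in the library labelled replicate 3. The cultures were thus low with that 1 exception, and the genotypes overlapped at each site. Of the counts assigned to Trp53, 67.8% went to the canonical coding transcript Trp53-203, 7.35% and 2.76% to the coding transcripts Trp53-202 and Trp53-201, and 22.1% and 0.052% to 2 transcripts with no defined coding sequence. Trp53-201 was at 0 in 16 of 22 libraries. The share without a coding sequence ranged from 13.1% to 27.3% over the libraries. It was 24.8% ± 2.02 (SD, n = 4) in NFKBIE-ko PC and 21.7% ± 1.78 (n = 4) in NFKBIE-wt PC (p = 0.0571, adjusted p = 0.206, exact 2-sided permutation test). Salmon's assignment used the reference transcripts, which do not hold the edits of the line.

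Cdkn2a was high everywhere and lowest in the PC. The NFKBIE-wt spleens had 394, 454, 473 and 546 CPM and the NFKBIE-ko spleens 421, 519, 561 and 587. The NFKBIE-wt PC had 309, 329, 336 and 391 CPM and the NFKBIE-ko PC 272, 289, 295 and 313. The NFKBIE-wt cultures had 404, 423 and 522 CPM and the NFKBIE-ko cultures 486, 493 and 507. No PC library reached the lowest spleen or culture library. The p19Arf transcript took 86.7% of the counts and p16Ink4a 13.3%, or 407 and 66.2 CPM per kb.

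The balance between p16Ink4a and p19Arf differed more between libraries than the total. Among NFKBIE-wt spleens p16Ink4a took 6.62%, 6.88%, 10.1% and 13.0% of Cdkn2a counts, the highest in the library labelled replicate 4, and among NFKBIE-ko spleens 9.03%, 13.6%, 14.8% and 16.01%. In the PC the shares were 13.4%, 14.3%, 15.8% and 17.6% in NFKBIE-wt and 19.7%, 20.0%, 20.2% and 20.2% in NFKBIE-ko. The cultures had 5.49%, 10.9% and 13.9% in NFKBIE-wt, the lowest in the library labelled replicate 3, and 12.5%, 13.5% and 14.3% in NFKBIE-ko. The genotypes therefore did not overlap in the PC and overlapped at the other sites. The difference of 4.73 percentage points in the PC had p = 0.0286, the smallest that 4 against 4 samples allow, and 0.171 after adjustment over 18 comparisons of shares (exact 2-sided permutation test). In the spleen the same exact permutation test gave a difference of 4.22 points (p = 0.114, adjusted p = 0.257), or 5.50 points without the library labelled replicate 4 (p = 0.114). In vitro the exact test gave 3.34 points (p = 0.3) and 1.03 points without the library labelled replicate 3 (p = 0.6, where 3 against 2 samples cannot go below 0.1). Without these libraries no adjusted p fell below 0.206. With all libraries, the PC exceeded the spleen by 6.14 points in NFKBIE-wt and 6.64 in NFKBIE-ko, without overlap (each p = 0.0286, adjusted p = 0.171, exact 2-sided permutation test). The PC exceeded the cultures by 6.55 points in NFKBIE-ko, without overlap, and 5.16 in NFKBIE-wt, with overlap (adjusted p = 0.206 and 0.257, same test).

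**Figure D2:**
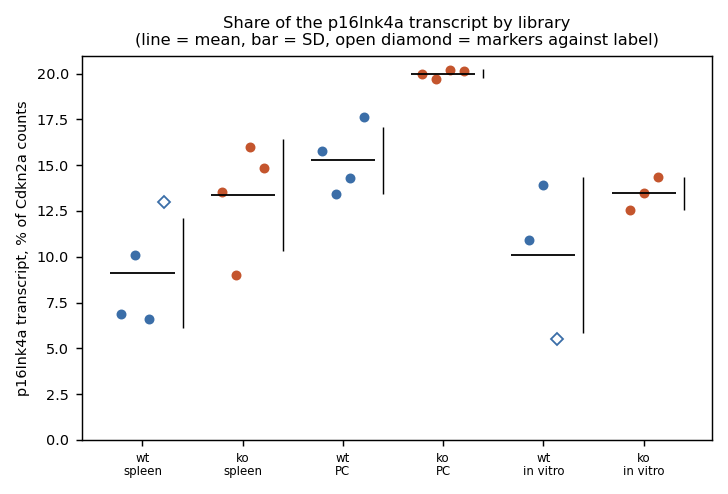
Share of Cdkn2a counts assigned to the p16Ink4a transcript, in percent (linear axis from 0), with 1 point per library, the group mean (line) and SD (bar), and open diamonds for the 2 libraries whose markers went against their labels. The NFKBIE-ko PC libraries lie at 19.7% to 20.2%, above the NFKBIE-wt PC libraries at 13.4% to 17.6%.

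Cdkn2b, which encodes the Cdk4 and Cdk6 inhibitor p15Ink4b from a single transcript, was highest in culture. The NFKBIE-ko cultures had 93.1, 105 and 114 CPM, and the NFKBIE-wt cultures 78.2 and 98.1 and, in the library labelled replicate 3, 17.4. The NFKBIE-wt spleens had 21.1, 22.2 and 26.9 CPM and, in the library labelled replicate 4, 89.3, while the NFKBIE-ko spleens had 20.4, 40.03, 41.9 and 44.6. The PC libraries had 14.01 to 22.5 CPM in NFKBIE-wt and 11.7 to 22.6 in NFKBIE-ko. Outside the 2 libraries in doubt, all cultures thus exceeded all spleen and PC libraries.

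Among the target genes, Cdkn1a, Phlda3 and Zmat3 varied most. Cdkn1a, the cyclin-dependent kinase inhibitor p21, had 8.82, 10.3, 12.3 and 13.1 CPM in NFKBIE-wt and 8.23, 12.8, 14.8 and 23.1 in NFKBIE-ko spleens. It had 28.3, 33.5, 34.6 and 43.8 CPM in NFKBIE-wt PC and 43.0, 46.9, 50.8 and 65.7 in NFKBIE-ko PC. The NFKBIE-wt cultures had 23.2 and 26.5 CPM and, in the library labelled replicate 3, 7.49. The NFKBIE-ko cultures had 15.7, 23.5 and 27.2. Every PC library lay above every spleen and culture library, and the genotypes overlapped at each site. Of its counts 98.4% belonged to the canonical transcript Cdkn1a-201.

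Phlda3, which encodes an inhibitor of Akt signalling, was close to the detection limit outside the PC. It had 0.437, 0.687, 0.780 and 0.898 CPM in NFKBIE-wt PC and 1.75, 2.43, 2.45 and 4.503 in NFKBIE-ko PC. The spleens had 0.0394 to 0.405 CPM, and in the 3 NFKBIE-ko cultures no count was assigned to it. The mean of NFKBIE-ko PC, 2.78 CPM, was at least 23.5-fold higher than the level of 3 counts per library in the NFKBIE-ko cultures. The NFKBIE-ko PC libraries did not overlap those of any other group.

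Zmat3, an RNA-binding protein gene and p53 target, had 28.3, 28.4 and 30.3 CPM in the NFKBIE-ko cultures and 29.3, 21.3 and, in the library labelled replicate 3, 13.1 in the NFKBIE-wt cultures. The PC libraries had 11.46 to 14.5 CPM in NFKBIE-wt and 16.1 to 20.8 in NFKBIE-ko. The spleens had 9.44 to 11.6 CPM apart from the library with the label of NFKBIE-wt replicate 4, at 22.01. Outside the 2 libraries in doubt the cultures thus held the highest levels, the spleens overlapped with the NFKBIE-wt PC, and the genotypes did not overlap in the PC.

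Mdm2, Ccng1 and Sesn2 varied less. Mdm2 had 65.0 to 90.0 CPM in the spleens, 51.7 to 61.6 in the PC and 65.4 to 91.5 in vitro, with 83.2% of its counts on Mdm2-201 and 9.23% on Mdm2-209, a transcript annotated as subject to nonsense-mediated decay. Ccng1, which encodes cyclin G1, had 72.1 to 91.4 CPM over all 22 libraries, the narrowest relative range of the 9 genes. Sesn2, a stress-induced inhibitor of mTORC1, had 13.98 to 39.3 CPM.

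The first comparison asked whether these genes differed between NFKBIE-ko and NFKBIE-wt at each site. For the spleen and PC it cannot separate the genotype from the donor mouse, because the genotypes were propagated apart. In the spleen none of the 8 genes that passed the filter on low counts was called (adjusted p < 0.05 over all genes), against a background of 5.43% of 12221 genes. No gene had an unadjusted p under 0.05, and DESeq2 also called 0. The log2 fold changes (NFKBIE-ko against NFKBIE-wt) ran from -0.30 for Zmat3 to 0.40 for Cdkn1a, and Trp53 differed by 0.01 ± 0.19 (SE). Without the library with the label of NFKBIE-wt spleen replicate 4, the background was 12.2% and again 0 of 8 members were called, with 1 at an unadjusted p under 0.05. That gene was Cdkn2b, whose fold change moved from -0.13 ± 0.49 to 0.65 ± 0.25 (adjusted p = 0.133). Phlda3 was too low to be tested.

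In the PC, 5 of the 9 genes were called, beside 43.4% of 12642 genes, a share near the background. Phlda3 rose by 1.97 ± 0.35 on the log2 scale (adjusted p = 0.00115), Cdkn1a by 0.54 ± 0.16 (adjusted p = 0.0197), Zmat3 by 0.43 ± 0.11 (adjusted p = 0.00999) and Ccng1 by 0.19 ± 0.06 (adjusted p = 0.0301), all from edgeR's quasi-likelihood test. Cdkn2a fell by 0.23 ± 0.09 (adjusted p = 0.0452). Trp53 (-0.06 ± 0.10), Cdkn2b (-0.12 ± 0.21), Mdm2 (-0.05 ± 0.07) and Sesn2 (0.13 ± 0.10) were not called. The median over the 9 genes was 0.13, against -0.01 over all genes tested. Phlda3 and Zmat3 were called whichever library was left out. The call of Cdkn2a was lost without any 1 of 6 of the 8 libraries, that of Ccng1 without any of 5 and that of Cdkn1a without NFKBIE-wt replicate 1 or 3, while in the fit of all 22 libraries only Phlda3 was called.

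Between the genotype groups of the PC, myeloid markers moved with these differences. The 7 markers (Lyz2, Adgre1, Itgam, Csf1r, Cd68, C1qa and Mpeg1) were all higher in NFKBIE-ko PC, and their summed level was 3641 to 5046 CPM there and 618 to 1515 in NFKBIE-wt PC, with none at 0. Within NFKBIE-ko PC, replicate 2 had the highest sum but the lowest Phlda3 and Zmat3, and replicate 1 had the lowest sum and the lowest Cdkn1a. Within NFKBIE-wt PC, replicate 2 had the lowest sum, the lowest Phlda3 and Cdkn1a, and the highest Zmat3. In the spleens the sum was 68.4 to 488 CPM and in the cultures 92.9 to 166. The 3 genes most like Cdkn1a over the 22 libraries, among 9794 genes with a mean of at least 5 CPM, were Hmox1 (Pearson r = 0.938), Adgre1 (0.937), which encodes the macrophage antigen F4/80, and Vat1 (0.936). Adgre1 had 20.6 to 28.7 CPM in the NFKBIE-ko cultures, above the 3.19 to 12.0 of the NFKBIE-ko spleens. Lyz2 (0.0413 to 0.188 against 41.2 to 141 CPM) and C1qa (0 against 4.45 to 38.4) went the other way. The part of myeloid cells in the differences of Cdkn1a, Phlda3 and Zmat3 was not tested. B-cell markers summed to 3243 to 3450 CPM in NFKBIE-ko and 2734 to 2923 in NFKBIE-wt PC, and granulocyte markers to 8.03 to 24.2 and 110.7 to 319.9. Of 7 T-cell markers 6 were called, 5 higher and 1 lower in NFKBIE-ko PC, with overlapping sums of at most 30.6 and 25.8 CPM. Stromal and endothelial markers summed to 99.9 to 118 and 73.3 to 82.7 CPM without overlap, while of the 3 tested 1 was higher and 2 were lower in NFKBIE-ko.

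**Figure D3:**
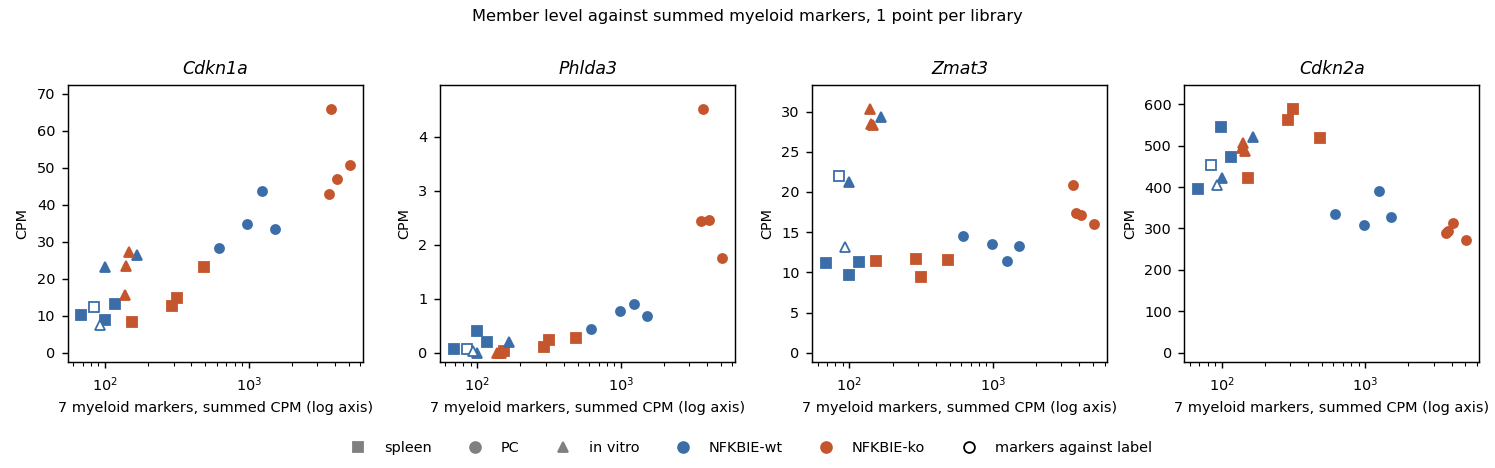
Level of Cdkn1a, Phlda3, Zmat3 and Cdkn2a in CPM (linear axes) against the summed CPM of 7 myeloid markers (log axis), 1 point per library, with symbols for site and colours for genotype. The 4 NFKBIE-ko PC libraries hold the highest marker sums, 3641 to 5046, and the highest Phlda3, whereas Zmat3 was highest in cultures with sums of at most 166.

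In vitro, 0 of 8 genes were called, beside a background of 0.0341% of 11722 genes, and Phlda3 was again too low to be tested. No member had an unadjusted p under 0.05, and DESeq2 called 0. The largest value was that of Cdkn2b, 0.69 ± 0.56, which became 0.24 ± 0.13 without the library with the label of NFKBIE-wt in vitro replicate 3. Without that library the background was 0.0759%, 0 members were called, and Trp53 differed by 0.06 ± 0.08 in place of -0.29 ± 0.25.

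**Figure D4:**
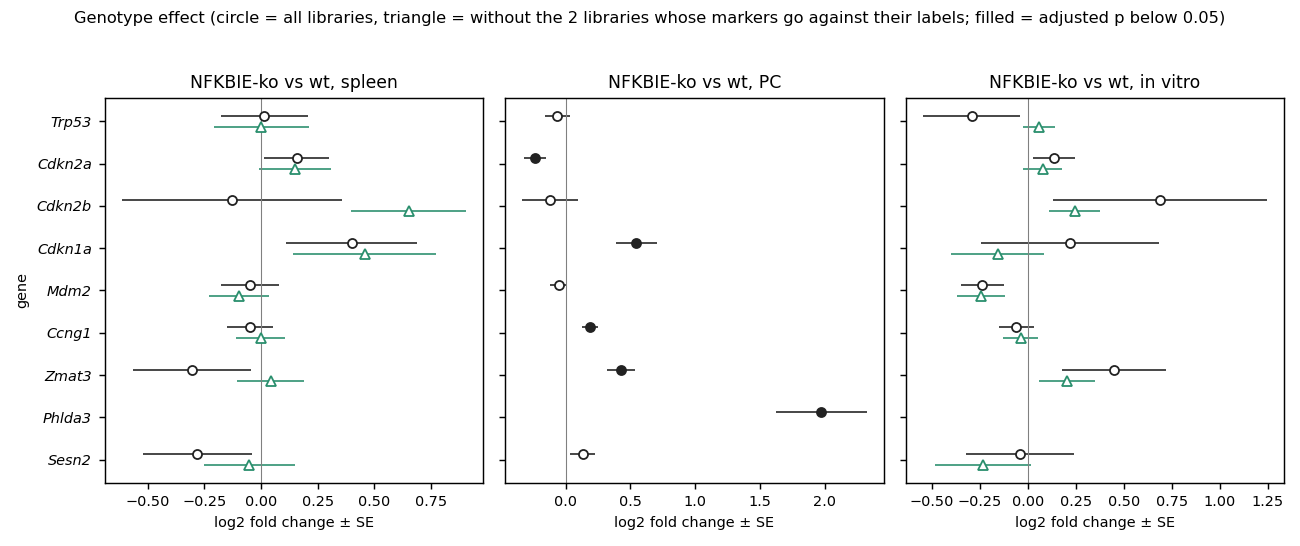
Log2 fold change between NFKBIE-ko and NFKBIE-wt (x axis, ± SE) for each gene, with a panel for each of the spleen, PC and culture, with all libraries (circles) and without the 2 libraries whose markers went against their labels (triangles). Filled symbols have an adjusted p below 0.05, which 5 genes reached in the PC and none in the spleen or in vitro, and the 3 panels have different x ranges.

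At the level of single transcripts, 0 of 18 member transcripts tested were called in the spleen (background 0.354%, and 0.868% without the library in doubt, with 0 of 19 called), with 0 and 1 at an unadjusted p under 0.05. In the PC 3 of 17 were called, beside 13% of all transcripts. They were Phlda3-201 (2.03 ± 0.40), Zmat3-201 (0.49 ± 0.11) and Ccng1-201 (0.24 ± 0.06). In vitro 0 of 18 were called, as were 0% of 33361 transcripts, with or without the library in doubt, with 0 members at an unadjusted p under 0.05, and DESeq2 called 0 members in the spleen and in culture. The p16Ink4a transcript had log2 fold changes of 0.77 ± 0.37 (spleen), 0.20 ± 0.16 (PC) and 0.54 ± 0.36 (culture), and the p19Arf transcript 0.13 ± 0.15, -0.26 ± 0.08 and 0.09 ± 0.11, none of them called.

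The second comparison set the sites against each other over both genotypes, in 1 fit of all 22 libraries. Spleen and PC samples came from the same transplanted mice, but the labels do not say which samples share a mouse, and the fit treats them as separate. Phlda3 was too low to be tested in the spleens or the cultures alone. It passed the filter of this fit only through its PC libraries, and is counted in the calls below. Between PC and spleen 5 of 9 genes were called, beside 57.8% of 13537 genes (6 of 9 beside 62% without the 2 libraries in doubt). Phlda3 (2.95 ± 0.48) and Cdkn1a (1.73 ± 0.23) were higher in the PC. Cdkn2b (-1.19 ± 0.33), Cdkn2a (-0.64 ± 0.08) and Mdm2 (-0.46 ± 0.07) were lower. Without the libraries in doubt Cdkn2b had -0.80 ± 0.16, and Zmat3 was also called, at 0.50 ± 0.08 (0.33 ± 0.16 with them).

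Between PC and culture 7 of 9 genes were called, beside 56.6% of genes (8 of 9 beside 61% without the libraries in doubt). Cdkn1a (1.05 ± 0.25) and Trp53 (0.39 ± 0.14) were higher in the PC, as was Phlda3, whose cultures held 0 to 5 counts. Cdkn2b (-2.28 ± 0.36), Zmat3 (-0.69 ± 0.17), Cdkn2a (-0.58 ± 0.09) and Mdm2 (-0.39 ± 0.08) were lower. Without the libraries in doubt Trp53 had 0.60 ± 0.12, and Sesn2 was called, at -0.43 ± 0.14. With all libraries, the call of Trp53 (adjusted p = 0.0228) was lost without NFKBIE-wt culture 1 or 2 or NFKBIE-ko culture 2 (adjusted p up to 0.072).

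Between spleen and culture 4 of 9 genes were called, beside 29% of genes (6 of 9 beside 47.8% without the libraries in doubt). Zmat3 (-1.02 ± 0.17), Cdkn2b (-1.10 ± 0.35) and Cdkn1a (-0.68 ± 0.24) were lower in the spleen. Phlda3 was called as higher at levels near the detection limit, and was in this test only because of its PC libraries. Without the libraries in doubt the values of Zmat3, Cdkn2b and Cdkn1a were -1.28 ± 0.09, -1.67 ± 0.18 and -0.86 ± 0.21. Trp53 (0.49 ± 0.13) and Sesn2 (-0.58 ± 0.14) were then called as well. With all libraries, the call of Cdkn1a was lost when any 1 of 9 libraries was left out and that of Cdkn2b for any 1 of 5.

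**Figure D5:**
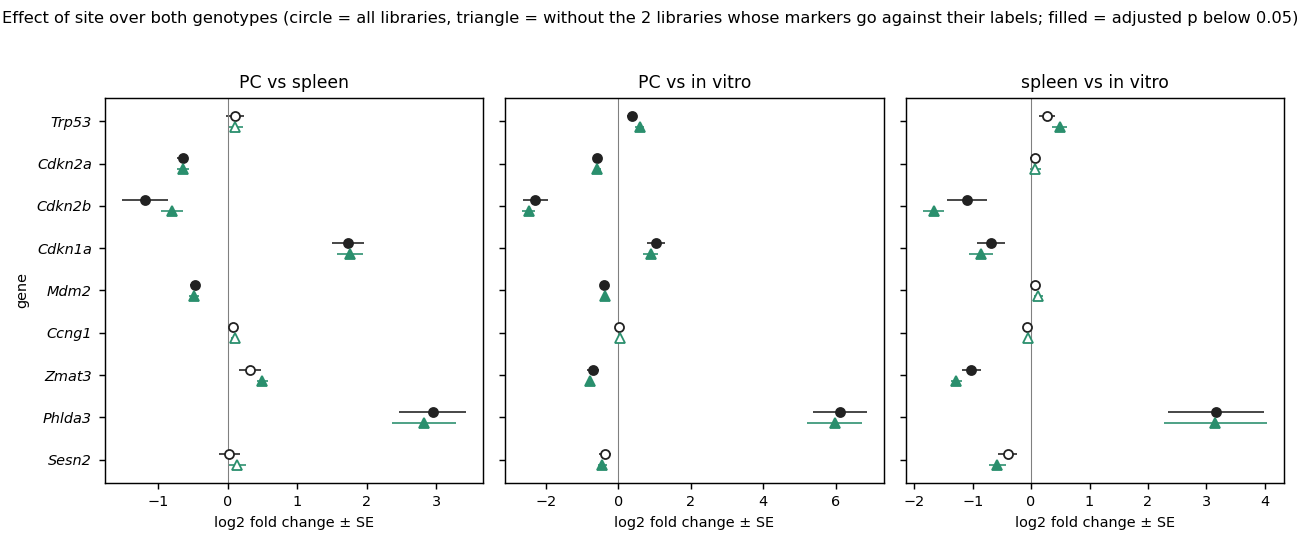
Log2 fold change (x axis, ± SE) of each gene between PC and spleen, PC and culture, and spleen and culture, over both genotypes, with all libraries (circles) and without the 2 libraries whose markers went against their labels (triangles). Filled symbols have an adjusted p below 0.05, and the estimates for Cdkn2b, Zmat3 and Trp53 move most between the circles and triangles.

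Proliferation markers moved with site too. Summed over Mki67, Top2a, Ccnb1, Cdk1, Pcna and Mcm5, they were at 882 to 1332 CPM in the PC, 1812 to 2750 in the spleens outside the library in doubt and 2887 to 3215 in the cultures outside the library in doubt. The 3 genes most like Cdkn2a over the 22 libraries were H2az1 (r = 0.960), Exosc3 (0.951) and Rpa2 (0.948), the first a histone variant gene and the last a subunit of the replication protein RPA. Those most like Trp53 were Ezr (0.904), Phldb3 (0.862) and Tmem63b (0.847). Without the 2 libraries in doubt the lists changed. They were then Cops5 (0.967), H2az1 (0.962) and Siah2 (0.957) for Cdkn2a, and Ezr (0.920), Midn (0.864) and Phldb3 (0.862) for Trp53. These correlations describe libraries that share site and cell composition, and the part of proliferation in the lower Cdkn2a of the PC was not tested.

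The third comparison asked whether the difference between the genotype groups changed with site. For PC against spleen 0 of 9 genes were called (edgeR, background 4.92%, and 8.25% without the libraries in doubt), with 4 at an unadjusted p under 0.05. For spleen against culture 0 of 9 were called (background 0.443% and 0.938%), with 2 at an unadjusted p under 0.05, or 1 without the libraries in doubt. DESeq2 called 0 in both. For PC against culture 1 of 9 was called, Phlda3 (adjusted p = 0.0428, or 0.0456 without the libraries in doubt), beside 4.8% and 6.12% of genes. This rests on cultures with 0 to 5 counts and on a gene that passed the filter only through its PC libraries. The call was lost without a filter on low counts and when any 1 of 16 libraries was left out.

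Genes of the same pathway were counted from lists. Of 35 known p53 targets including the 7 above, 34 were in the table. In the PC 17 of the 32 tested were called between genotypes, 9 higher and 8 lower in NFKBIE-ko, with a median log2 fold change of -0.003 against -0.008 over all genes. The largest changes outside the 10 genes were those of Pmaip1 (Noxa, a proapoptotic BH3-only protein, 2.55 ± 0.34), the death receptor gene Fas (1.07 ± 0.25), the cytokine gene Gdf15 (0.98 ± 0.21) and Sesn1 (-0.81 ± 0.19). Pmaip1 had 147.6 to 384 CPM in NFKBIE-ko and 28.6 to 52.3 in NFKBIE-wt PC, without overlap. In the spleen 2 of 31 were called, Pmaip1 (2.14 ± 0.44) and Trp53inp1 (-1.88 ± 0.26), or 6 without the library in doubt, beside 5.43% and 12.2% of all genes, so that the 2 are near the background. In vitro 0 of 31 were called by edgeR and 1 by DESeq2. Between PC and spleen 18 of 32 were called (10 higher and 8 lower in the PC), or 23 without the libraries in doubt, among the 18 the proapoptotic Bbc3 (Puma, 1.36 ± 0.16), Plk2 (1.36 ± 0.56), Tnfrsf10b (-1.49 ± 0.31) and Pidd1 (-1.25 ± 0.09). Between PC and culture 17 were called (9 higher, 8 lower), or 23 without the libraries in doubt, and between spleen and culture 14 (6 higher, 8 lower), or 18 without them. The targets thus moved in both directions in each of these comparisons, at shares read against 43.4%, 57.8%, 56.6% and 29% of all genes.

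Of the 14 p53 regulators, 5 were called between genotypes in the PC, among them Rchy1 (-0.87 ± 0.07), Hipk2 (0.83 ± 0.18) and the checkpoint kinase gene Chek1 (-0.71 ± 0.12), with 1 higher and 4 lower. In the PC against the spleen 7 were called, 6 of them lower, with Chek1 at -1.07 ± 0.19, or 8 without the libraries in doubt. Both shares lie below those of all genes, 43.4% and 57.8%. Of the p53 paralogs, Trp63 had at most 0.0761 CPM in any library. Trp73 had 2.35 to 2.70 CPM in the NFKBIE-ko cultures, 0.241 and 4.84 in NFKBIE-wt cultures 1 and 2, 0 in the library labelled replicate 3 and 0.0856 to 0.418 in the PC (-3.16 ± 0.80 for PC against culture, adjusted p = 0.00232, and -3.42 ± 0.56 without the libraries in doubt).

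The other CDK inhibitors shared the pattern of site only in part. Against the spleen, the PC had higher Cdkn1b (p27, 0.76 ± 0.09) and Cdkn2d (p19Ink4d, 0.77 ± 0.13) and lower Cdkn2c (p18Ink4c, -0.66 ± 0.07), and Cdkn1c had at most 0.358 CPM. Between genotypes in the PC, Cdkn2d was higher in NFKBIE-ko (0.60 ± 0.13) and Cdkn2c and Cdkn1b lower (-0.35 ± 0.12 and -0.21 ± 0.06). On the CDK4/6-Rb axis, 5 of 14 genes were called between genotypes in the PC, with Ccnd1 (cyclin D1) at 17.1 to 27.9 CPM in NFKBIE-ko and 0.835 to 3.36 in NFKBIE-wt (3.25 ± 0.34) and Cdk6 lower (-1.11 ± 0.15), a share below the 43.4% of all genes. Ccnd1 had 0.723 to 1.38 CPM in the NFKBIE-ko spleens and at most 0.0402 in the cultures outside the library in doubt. The part of host cells in these differences was not tested. In the PC against the spleen 12 of 14 were called with and without the libraries in doubt, 3 higher and 9 lower, beside 57.8% and 62% of all genes. Of the genes beside the Cdkn2a and Cdkn2b locus, Mtap was lower in the PC than in the spleen (-0.99 ± 0.12) and in culture (-1.09 ± 0.13), and Dmrta1 had at most 0.159 CPM.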

How the data were processed

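RNA was measured in 22 samples of 6 groups (4 per group in the spleen and PC, 3 in vitro). The authors aligned reads to a GRCm39 transcriptome index with Salmon 1.8 and deposited estimated counts per transcript, not normalized, of which 69.5% of values were not whole; the annotation release was not given in the sources used here. Counts were rounded, and 62147 of 62492 transcripts were matched by identifier to GENCODE M39 and summed to 17023 genes (0.619% of counts had no match). Samples were grouped by their GEO labels. Differential expression was tested with edgeR 4.0.16 in R 4.3.3 (quasi-likelihood test, TMM scaling, filterByExpr, Benjamini-Hochberg adjustment over all features, threshold 0.05), per site for genotype and over all 22 libraries for site and interaction. The SE of an edgeR fold change was derived as the absolute log2 fold change over the square root of the quasi-likelihood F statistic. CPM values are TMM-scaled. Scripts were tested on simulated data. Shares of transcripts were compared with exact 2-sided permutation tests. Alternatives were DESeq2 1.42.0, RLE size factors, a stricter filter on low counts or none, a replicate block, a fit of all libraries, a fold rule (log2 fold change beyond 1), and leaving out each library. Fits without the 2 libraries whose markers went against their labels were added after seeing the data. Genes outside the 10 were named as the up to 4 called genes of each list with the largest fold change. The members and lists were chosen with earlier results of these data known. Cultures came from the spleens of 3 mice, kept apart, and the spleen and PC samples from transplanted mice, but the labels tie no sample to a mouse, so a replicate number was not taken to mark one. Sequences were read from GRCm39. Depth was similar in all libraries, and intervals for counts were not computed.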

Additional observations from a re-analysis of the deposited data

Results flagged for a closer look

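Within the groups of 4, the highest or lowest sample stood apart for 3 of 36 combinations of gene and group tested with Dixon's criterion, which chance meets in about 1 in 20. Cdkn2b had 89.26 CPM in the library with the label of NFKBIE-wt spleen replicate 4 and at most 26.94 in the other NFKBIE-wt spleens. Zmat3 had 22.01 CPM in that library and at most 11.29 in the others. Both values lie within the range of the cultures, and the markers of this library also went against its label. Its Trp53 (36.86 CPM) and Cdkn1a (12.3) went the other way. They lay within the range of the other NFKBIE-wt spleens and outside that of the cultures not in doubt. Zmat3 had 9.437 CPM in NFKBIE-ko spleen replicate 3 and at least 11.46 in the other 3. For Phlda3, the difference between NFKBIE-ko and NFKBIE-wt was called as unlike in PC and culture, with an interaction of 6.058 ± 1.634 (SE) on the log2 scale (adjusted p = 0.0428, edgeR). This fitted value depends on the prior count because the NFKBIE-ko cultures held 0 counts. The call was lost without a filter on low counts, with the replicate block and without any 1 of 16 libraries. In the PC the genotype cannot be told apart from the donor mouse.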

How the results depend on the processing

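Most counts of called genes stayed within 1.5 times under the alternatives, and the cause of each change was not tested. For the 10 genes in the PC, 5 called genes became 3 with the replicate block, 1 in the fit of all libraries, 1 under the fold rule and 3 to 4 when 1 library was left out; for their transcripts 3 became 1 with the replicate block, 6 with DESeq2, 1 in the fit of all libraries, 1 under the fold rule and 1 to 3 without 1 library. Under the fold rule the genes called became 3 for PC against spleen and 3 for PC against culture, and for spleen against culture 2 to 6 were called without 1 library. The interaction of PC and culture went from 1 to 0 without a filter and with the replicate block, and to 0 to 1 without 1 library. For p53 targets, the 2 called in the spleen became 0 with the replicate block, 4 with DESeq2, 4 in the fit of all libraries, 6 without the library in doubt and 1 to 6 without 1 library; the 17 in the PC became 5 in the fit of all libraries, 3 under the fold rule and 11 to 16 without 1 library; the 0 in vitro became 1 with DESeq2, 2 in the fit of all libraries and 0 to 2 without 1 library. The fold rule left 7 targets for PC against spleen, 7 for PC against culture and 4 for spleen against culture, where leaving out 1 library gave 6 to 19. Directions that reversed belonged to genes that were not called. With the replicate block, Trp53 in the spleen had -0.030, Cdkn2b in the spleen 0.11 and Sesn2 in vitro 0.031. Without the libraries in doubt, Cdkn2b in the spleen had 0.65, Zmat3 in the spleen 0.043, Trp53 in vitro 0.056 and Cdkn1a in vitro -0.16. Leaving out 1 library gave, in the spleen, -0.22 to 0.13 for Trp53, -0.33 to 0.65 for Cdkn2b, -0.14 to 0.026 for Mdm2 and -0.42 to 0.043 for Zmat3, in the PC -0.33 to 0.027 for Cdkn2b, and in vitro -0.45 to 0.056 for Trp53, -0.16 to 0.52 for Cdkn1a and -0.24 to 0.35 for Sesn2. It gave -0.058 to 0.14 for Sesn2 between PC and spleen and -0.022 to 0.050 for Ccng1 between PC and culture. The replicate numbers were not shown to pair the samples. Correlations of same-numbered deviations ran from -0.349 to 0.203 between genotypes, -0.189 to 0.257 between NFKBIE-wt spleen and PC, -0.0592 to 0.281 between NFKBIE-ko spleen and PC (above 0.1 in 3 of 4), and -0.388 to 0.486 between spleen or PC and culture. With the replicate block 5 genes were called for PC against spleen, 7 for PC against culture and 3 for spleen against culture. Depth limits Phlda3 outside the PC, with 0 to 10 counts per library.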
